A study of Drosophila melanogaster with 2 samples.

Results

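The genes described here are 10 regulators of the response to the steroid hormone ecdysone and to juvenile hormone in Drosophila melanogaster, of 13945 protein-coding genes annotated on the main chromosomes. They are EcR, usp, Eip75B, Eip74EF, br, Eip78C, Hr3, ftz-f1, Met and gce. They were chosen by name, with earlier results of these data known. For each of them, every called region was taken whose summit (its point of highest signal) lay in the gene or within 5 kb of it. The regions come from chromatin immunoprecipitation and sequencing of a transgenic fly line that carries the protein CG42726 fused to enhanced green fluorescent protein, with an antibody against the fluorescent tag. Whole embryos aged 0 to 24 hours made up the only group, with 2 biological replicates, so no conditions were compared and no test was made. CG42726 is known by its gene number alone. All cells of the embryo and all embryonic ages were pooled in a sample, which limits what a region can say about any tissue or stage. No control immunoprecipitation was analysed here, and since the lists give no numbers of reads, sequencing depth is unknown.

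Ecdysone, as its active form, binds a pair of nuclear receptors, the ecdysone receptor EcR and its partner Ultraspiracle (the product of usp). The bound receptor switches on a small set of early genes that encode transcription factors, among them Eip75B, Eip74EF and br, and these pass the signal on to later genes. Hr3 and ftz-f1 encode nuclear receptors that act in sequence after the hormone pulse, and Eip78C encodes a nuclear receptor related to that of Eip75B. Juvenile hormone acts through Met and gce, paralogous proteins of the bHLH-PAS family that bind the hormone. Its best known target is Kr-h1. In the embryo an ecdysone pulse at mid-embryogenesis is needed for morphogenesis, and the ftz-f1 protein also acts earlier as a partner of the segmentation protein Fushi tarazu.

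There were 4 lists of called regions. Each holds regions kept by the irreproducible discovery rate (IDR), which measures how well the order of regions agrees between 2 sets of reads. The lowest −log10 IDR kept was 2.00 in every list. The conservative list compares the replicates and held 2752 regions, 2747 of them on the main chromosomes, with a median width of 296 bp. Its signals, the authors' own values on a scale that has no stated unit, had a median of 102 and ran from 2.09 to 13437. The list from pooled reads held 4044 regions, that of replicate 1 held 2803 and that of replicate 2 held 1629. Behind each list stands a longer ranked list of regions before the limit. Signals of different lists are given side by side, and those of the replicates also as a count and a ratio. Depth is unknown, so a difference between lists was not read as a difference in amount.

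Sequences from 7 of these regions show what kinds of DNA lay under the signal at Eip75B, Eip74EF, Eip78C, ftz-f1 and gce. They were read from the plus strand of dm6, 5′ to 3′, and show 101 bases around the summit, or, where the summit lay in a 5′ UTR, 30 bases placed on a match near it. For Eip75B-RA these 30 bases do not include the summit, which is at 17971267. Capitals mark matches, on either strand, to the short sequences searched for: the GAGA repeat GAGAG, the CTCF core TGGCGC, the BEAF-32 sequence CGATA, the promoter element TATCGATA, the variant E-box CACGCG, and the CA repeat CACACACA.
Eip75B, start of RA (chr3L:17971286-17971315): ttgcttcgggtcgCTCTCTCgCTCTCTCgg
Eip75B, intron (chr3L:18019839-18019939): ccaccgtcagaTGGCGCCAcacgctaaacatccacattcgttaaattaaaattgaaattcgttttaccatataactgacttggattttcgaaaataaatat
Eip74EF, intron, weaker region (chr3L:17572242-17572342): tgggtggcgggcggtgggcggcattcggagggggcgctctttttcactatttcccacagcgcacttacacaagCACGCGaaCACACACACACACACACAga
Eip74EF, intron, stronger region (chr3L:17597024-17597124): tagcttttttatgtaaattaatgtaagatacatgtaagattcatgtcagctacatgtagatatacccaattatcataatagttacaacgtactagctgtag
Eip78C, start of RB (chr3L:21240366-21240395): caaagcgcgcggCACGCGaacgctctgaaa
ftz-f1, upstream of RB (chr3L:18801530-18801630): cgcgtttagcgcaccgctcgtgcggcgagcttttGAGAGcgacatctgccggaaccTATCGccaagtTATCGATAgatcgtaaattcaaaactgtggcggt
gce, intron (chrX:15301342-15301442): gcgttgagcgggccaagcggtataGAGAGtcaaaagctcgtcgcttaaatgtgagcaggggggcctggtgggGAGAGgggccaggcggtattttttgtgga

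Regions were called at most of the hormone regulators. In the conservative list 9 of the 10 genes had at least 1 region in the gene or within 5 kb, and usp had 0. The same window held a region for 41.3% of all protein-coding genes, and for 56.3% of the 1013 genes that span 20 kb or more, a length that 8 of the 10 reach. With the summit required to lie inside the gene, 7 of the 10 had a region, against 9.03% of all genes and 32.5% of those of 20 kb or more. In the pooled list all 10 had a region in the 5 kb window (52.2% of all genes), in that of replicate 1 it was 9 (42.9%), and in that of replicate 2 it was 8 (27.8%). These counts rest on few genes that differ in length, and what the lengths contribute was not tested further. The genes were also chosen with earlier results of these data known, so the shares of all genes describe and do not test.

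The 9 genes together held 35 regions at 32 separate places, since 6 of the regions form 3 overlapping pairs. Each pair joins a stronger region to one with a signal below 10, as do all 33 regions below 10 in the list. The median signal of the 35 was 112, with a range of 2.52 to 309, and 22 of them (62.9%) were above the median of the list. The regions were of different kinds. Of the 35, 12 had a start of the gene itself as the nearest annotated start, at 7 genes, with a median signal of 93.5. Another 11, at 5 genes, lay nearest to the start of a neighbouring protein-coding gene, with a median of 112 and the highest signal of all. All 7 regions nearest to a tRNA gene were at EcR and had a median of 157. The remaining 5 lay nearest to another non-coding RNA. In all, 23 of the 35 (65.7%) lay within 500 bp of some annotated start, against 79.7% of the whole list, and 15 lay in an intron.

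**Figure D1:**
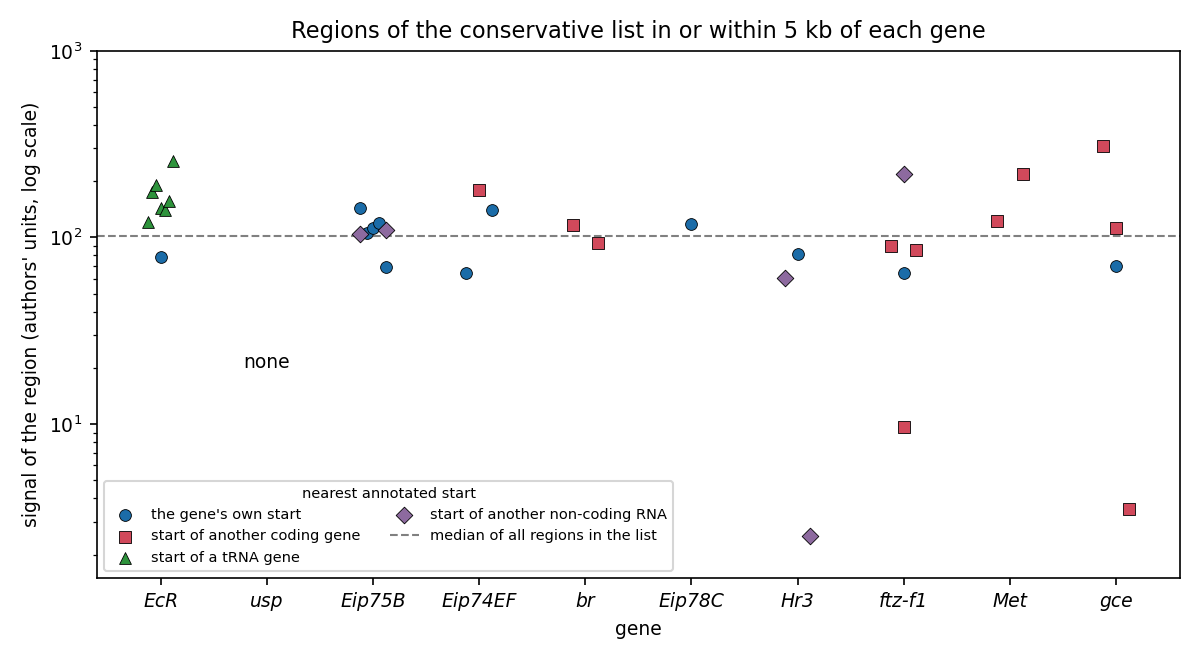
Signal of each conservative-list region (authors' units, log scale) in or within 5 kb of each of the 10 genes, with the symbol giving the kind of start nearest to the summit and the dashed line the median of the list, 102. The 7 regions of EcR that lie nearest to tRNA genes sit above the line, the strongest regions of Met and gce lie nearest to neighbouring coding genes, and usp has none.

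EcR carried more regions than any other of the 10 genes, and most of them sat at tRNA genes inside or beside it. EcR (FBgn0000546) lies on 2R from 6087873 to 6169087 on the minus strand and has 6 annotated transcripts from 4 starts. In the conservative list it had 8 regions, and of all protein-coding genes only Kr-h1 had more, with 10. The strongest lay 2579 bp upstream of the 5′-most start, with its summit at 6171666, 21 bp from tRNA:Arg-ACG-1-4. Its signal was 257 (rank 186), with 164 in replicate 1 and 96.1 in replicate 2. In replicate 1 the summit was at 6171568, 0 bp from the start of another tRNA gene, tRNA:Lys-CTT-1-5. The next lay in an intron at 6152626, 50 bp from tRNA:Asn-GTT-1-1, with 191 (rank 383), 136 in replicate 1 and 60.6 in replicate 2. Both passed in each replicate.

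Another region of EcR, with its summit at 6151344 in an intron, had a signal of 176, and 70.0 and 94.6 in replicates 1 and 2. It lay 1332 bp from the nearest tRNA gene, farther than the other 6 tRNA regions, whose summits lay between 5 and 76 bp from one. The region upstream of EcR-RA at 6169658 had a signal of 157, and lay 571 bp from that start but 51 bp from tRNA:Arg-ACG-1-3. Regions at tRNA:Lys-CTT-1-2 and tRNA:Ile-AAT-1-1 had signals of 143 and 141. In replicate 2 the summit of the latter lay nearest to tRNA:Lys-CTT-1-4, at 76 bp. The region at tRNA:Arg-ACG-1-1, with 120.5, passed in replicate 1 (84.9) and not in replicate 2 (32.5).

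The remaining region of EcR had its own start as the nearest. This region of the conservative list lay deep in an intron at 6117596, 14245 bp downstream of the start of EcR-RG, with a signal of 78.4 (rank 2050). It passed in replicate 1 with 44.1 and did not pass in replicate 2, where the overlapping ranked region had 33.5. No region of the conservative list lay within 500 bp of any of the 4 starts of EcR. The pooled list added 1 there, 5 bp from the start of EcR-RG, with a signal of 91.8. Replicate 1 also had it, with 52.1, and replicate 2 had no ranked region within 500 bp of that start.

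The tRNA genes around EcR are of 4 kinds. Of 16 in the window, 13 lie inside EcR, and no other of the 10 genes has any in its window. They comprise 6 Asn-GTT, 5 Lys-CTT, 4 Arg-ACG and 1 Ile-AAT gene. In the conservative list 10 of the 16 (62.5%) had a summit in or within 250 bp of the gene, against 51.4% of 290 tRNA genes of the genome. The count was 14 in the pooled list, 13 in replicate 1 and 8 in replicate 2, where no share of all tRNA genes was taken. Neighbouring tRNA genes can share a summit in these counts. The conservative-list regions of signal 143, 141, 120.5 and 257 each count for more than 1 tRNA gene. Over the whole list 4.88% of regions lay nearest to a tRNA gene, and at EcR it was 7 of 8. Transfer RNA genes are read by RNA polymerase III and not by the polymerase that reads EcR. Copies of a tRNA gene are nearly identical, and how reads that match several places were treated is not given in the sources used here. Which copy the signal of a region came from is therefore uncertain.

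**Figure D2:**
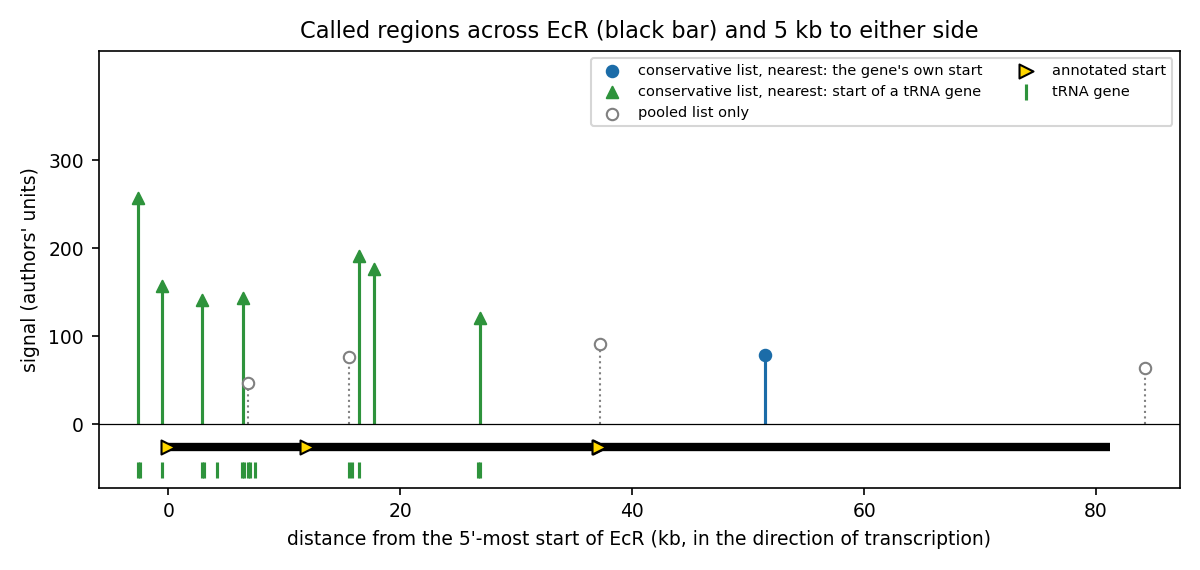
Called regions across EcR and 5 kb to either side, plotted as signal (authors' units) against distance from the 5′-most start in kb in the direction of transcription. Green triangles mark the 7 conservative-list regions nearest to tRNA genes (green ticks below), which fall in the 5′ part of the gene and upstream of it, the blue point the region of signal 78.4, and open circles regions found in the pooled list alone.

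At usp, the gene of the receptor's partner, a region at a start fell just short of the IDR limit. The gene (FBgn0003964) spans 3.51 kb on X, from 2038798 to 2042311 on the minus strand, with 2 starts. The conservative list had no region in its window. In the ranked list behind it a region 108 bp from the start of usp-RA had a signal of 70.7 and a −log10 IDR of 1.98, and 1.99% of ranked regions had a higher signal. The pooled list called it, with a summit at 2041420. At this start replicate 2 had a passed region with a signal of 46.0, and replicate 1 had 27.5, which did not pass. At the other start, that of usp-RB, the ranked signal was 43.9.

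Eip75B had regions at several of its alternative starts, and was the only one of the 10 genes with called regions at more than 1 start in the conservative list. It encodes a nuclear receptor that binds heme and is among the earliest genes to respond to ecdysone. The gene (FBgn0000568) spans 114 kb on 3L, from 17950953 to 18064696 on the minus strand, with 7 transcripts that each have their own start. It had 7 regions, a number that 8 of all protein-coding genes (0.0574%) reach or exceed. Some of these 8 genes overlap and share their regions, and no share among genes of like length was taken. The region at the start of Eip75B-RD had the highest signal, 144 (rank 721), with a summit at 17961701 in the 5′ UTR, 113 bp downstream of the start. It had 78.4 in replicate 1 and 54.4 in replicate 2, and passed in each.

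At the start of Eip75B-RA the signal was 105, with 50.2 and 56.1 in replicates 1 and 2, and the summit at 17971267 lay 172 bp downstream. The sequence printed for this start holds GAGAG repeats on the minus strand. At Eip75B-RC the signal was 112, 335 bp downstream of the start, with 66.4 and 42.3. The start of Eip75B-RE had a signal of 69.8 at 32 bp, and passed in neither replicate alone (38.6 and 28.7). The other 3 starts, of RG, RB and RF, had ranked signals of 52.9, 33.4 and 24.0 and were not called.

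The other regions of Eip75B lay away from its starts. An intronic region at 18019889, with a signal of 119, lay 6143 bp downstream of the start of Eip75B-RG and passed in both replicates (48.9 and 73.5). It is 1 of 10 regions among the 35 whose signal was higher in replicate 2, where an overlapping pair at Hr3 counts as separate regions. Another, at 17988366, had 109 and passed in replicate 1 alone (67.0, against 38.2 in replicate 2). TGGCGC was found at both of these intronic summits. Beyond the 3′ end a region at 17949297 had 104, and 53.4 and 48.9 in the replicates. Apart from that of RE, the 7 signals ran from 104 to 144, all above the list median of 102.

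**Figure D3:**
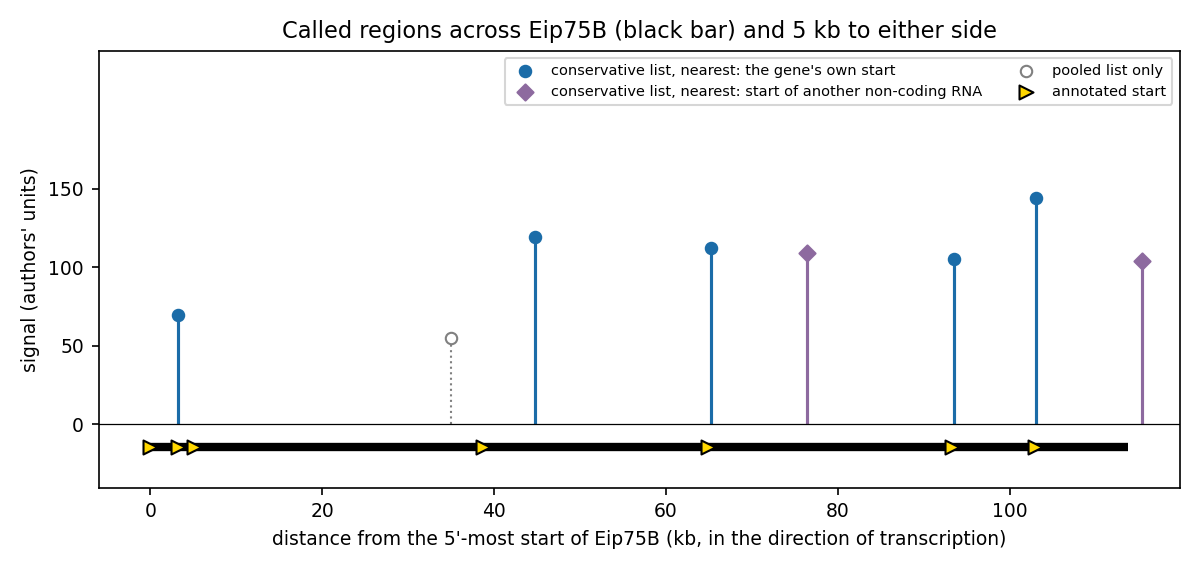
Called regions across Eip75B and 5 kb to either side, plotted as signal (authors' units) against distance from the 5′-most start in kb in the direction of transcription, with yellow triangles at the 7 annotated starts. Regions stand at 4 of the 7 starts, with signals of 69.8, 112, 105 and 144 from left to right, and the open circle is a region of the pooled list alone.

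Eip74EF, which encodes a transcription factor of the ETS family, had regions in its introns and none at its starts. It (FBgn0000567) spans 60.7 kb on 3L, from 17558672 to 17619325 on the minus strand, with 3 distinct starts. The stronger intronic region, at 17597074, had a signal of 141 (rank 750), with 66.4 in replicate 1 and 82.6 in replicate 2, both passing. It lay 20448 bp from the nearest start of Eip74EF, and of the sequences searched, none was within 50 bp of its summit. The weaker one, at 17572292, had 64.8 and passed in neither replicate (31.4 and 35.3). The highest signal in the window, 179, lay beyond the 3′ end, 49 bp from the start of CycT, which encodes a cyclin of the elongation factor P-TEFb. At the 3 starts of Eip74EF the ranked signals were 41.7, 42.5 and 48.7. The pooled list added 3 regions, with signals of 59.7, 60.5 and 62.4, the last of them 51 bp from the start of anchor.

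No region lay inside br, which encodes the BTB zinc finger proteins called Broad. The gene (FBgn0283451) spans 89.7 kb on X, from 1575132 to 1664869 on the plus strand, with 16 transcripts from 9 starts. Both regions of its window lay beyond its 3′ end at neighbouring promoters. That at 1665034, 165 bp past the end of br, had a signal of 117 and lay 18 bp from the start of dor, a gene of vesicle trafficking. It passed in replicate 1 (91.6) and not in replicate 2 (28.4). The other, with 93.3, lay 87 bp from the start of hfw and passed in neither replicate alone (49.6 and 41.8). At the 9 starts of br the ranked signals ran from 6.53 to 31.0, and none was called in any list.

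Eip78C, a nuclear receptor gene (FBgn0004865) on 3L from 21226609 to 21266503 on the plus strand, had a single region, at an internal start. Its summit at 21240376 lay 29 bp downstream of the start of Eip78C-RB, in the 5′ UTR. The signal was 118 (rank 1065), with 54.5 in replicate 1 and 62.8 in replicate 2, and it passed in both. The sequence CACGCG, a variant E-box that Met and Gce proteins are known to bind, lay 5 bp from the summit. The 2 starts at the 5′ end of the gene had ranked signals of 31.9 and 13.2 and were not called.

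Hr3 also had a called region at an internal start. Hr3 (FBgn0000448) encodes a nuclear receptor related to the mammalian ROR proteins, and lies on 2R from 10203995 to 10237348 on the minus strand. The region had its summit at 10227903, 54 bp downstream of the start of Hr3-RA, RF and RH, which the annotation also gives to CG46321. Its signal of 81.7 (rank 1927) was below the list median, with 47.0 in replicate 1, where it passed, and 38.5 in replicate 2, where it did not. An intronic region at 10216999 had 60.6 and passed in neither replicate (30.03 and 40.2). A region overlapping it had a signal of 2.52. At the remaining 2 starts of Hr3 the ranked signals were 46.7 and 38.1.

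ftz-f1 had the strongest region at a start of any of the 10 genes. It (FBgn0001078) spans 50.7 kb on 3L, from 18750607 to 18801309 on the minus strand, with 3 starts. With its summit at 18801580, 271 bp upstream of the start of ftz-f1-RB, the region had a signal of 218 (rank 267). It had 151 in replicate 1 and 57.1 in replicate 2, and passed in both. The start of lncRNA:CR45939 lies 268 bp from the same summit, so the region cannot be given to either gene alone. Its sequence, printed above, holds TATCGATA, the core of the DNA replication-related element of many housekeeping promoters. At the other 2 starts, the ranked list behind the conservative list had a signal of 36.8 at ftz-f1-RC and RD and no region at RA.

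The remaining regions in the window of ftz-f1 were weaker. An intronic region at 18786533 had 64.3 and passed in neither replicate (33.7 and 32.5). Beyond the 3′ end a region 34 bp from the start of Atg3, which encodes an enzyme of autophagy, had 90.0, with 54.8 and 44.3 in the replicates. Its overlapping partner had 9.61. Between Atg3 and ftz-f1 a region at 18750035 had 85.9 and passed in replicate 2 alone (40.6, against 33.3 in replicate 1), the only one of the 35 to do so.

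At the juvenile hormone receptor genes the strong regions lay at neighbouring promoters. Met (FBgn0002723) is a gene of 5.16 kb on X, from 11616124 to 11621280 on the plus strand, with a single start. Downstream of it a region at 11621926, 89 bp from the start of the receptor tyrosine phosphatase gene Ptp10D, had a signal of 218 (rank 268), and 129 and 88.5 in replicates 1 and 2. Upstream, a region at 11611935 had 123 and lay 8 bp from the start of CG1703, with 75.8 and 42.2. All these values passed. The start of Met itself had a ranked signal of 67.3 at 6 bp, with a −log10 IDR of 1.87, just short of the limit. The pooled list called it, and replicates 1 and 2, with 30.9 and 29.2, did not.

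gce, the paralogue of Met, had the highest signal of the 35. It (FBgn0261703) lies on X from 15297766 to 15319074 on the plus strand, with 3 starts. The region at 15319421, 347 bp past the 3′ end of gce and 58 bp from a start of Top1, which encodes topoisomerase I, had a signal of 309 (rank 123). It had 184 in replicate 1 and 125 in replicate 2. A second region at Top1, with 112, had 78.6 and 44.8 and overlapped one of signal 3.50. Within gce a region at 15301392 had 69.9, lay 883 bp downstream of the nearest gce start, and passed in neither replicate (32.8 and 35.2). The starts of gce had ranked signals of 50.01, 43.7 and 24.9, none called.

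Widening the window to 10 kb took the 35 regions to 39, while keeping only summits in the gene span left 20. The outermost inside the 5 kb window were the one at hfw, 4614 bp from br, and the pair at Top1, 4341 and 4552 bp from gce. Within the next 5 kb lay 4 more: signals of 13.2 and 79.2 at 6609 and 6815 bp from ftz-f1, 68.0 at 7955 bp from Hr3, and 178 at 9755 bp from Eip78C. The last lay 15 bp from the start of Trmt112.

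Starts of the genes themselves were called at fewer genes than the wider windows, which holds by construction because those windows contain the starts. A summit within 500 bp of a start was found for 4 genes in the conservative list (Eip75B, Eip78C, Hr3 and ftz-f1), against 18.0% of all protein-coding genes. The pooled list had 7, adding EcR, usp and Met (23.9% of all genes). Replicate 1 had 5 (19.5%) and replicate 2 had 4 (11.2%). Counted by start, 7 of the 38 distinct starts were called in the conservative list and 11 in the pooled list, against 16.1% and 21.4% of the 19607 starts of protein-coding genes. A ranked region lay within 500 bp of 35 of the 38 starts, with or without passing, so the presence of a ranked region did not set a start apart. The 4 genes with called starts have other starts in the same list that were not called, at ranked signals of 52.9 or lower.

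**Figure D4:**
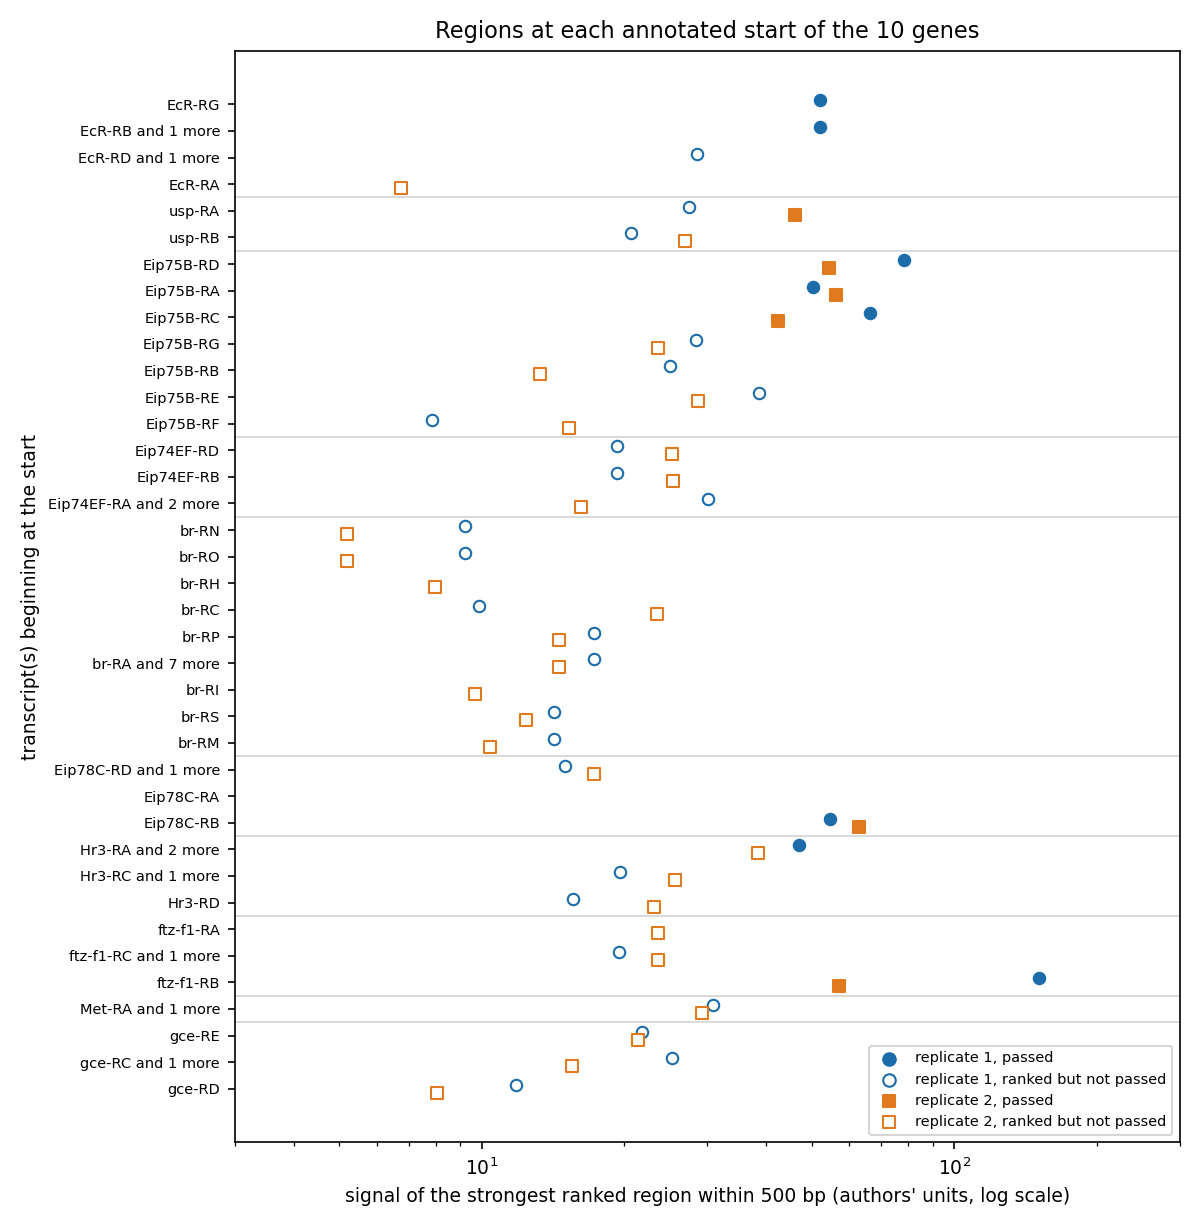
Signal of the strongest ranked region within 500 bp of each of the 38 annotated starts (authors' units, log scale) in replicate 1 (circles) and replicate 2 (squares), filled where the region passed. Starts of Eip75B-RD, RA and RC, Eip78C-RB and ftz-f1-RB are filled in both replicates, and every start of br is open.

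The replicates agreed on most of the smaller set of regions. Of the 21 regions that replicate 2 called at the 10 genes, 19 (90.5%) overlapped one of the 30 of replicate 1, which is 63.3% of the latter. Over the whole lists these shares were 76.4% and 44.8%. Of the 35 conservative regions, 27 overlapped a region passed in replicate 1 (72.2% of the whole list did), 22 one of replicate 2 (52.2%), and 21 one of each (45.6%). Neither replicate alone passed 7 of the 35, and 6 passed in replicate 1 only. In the replicates' ranked lists the 35 regions had median signals of 66.4 and 44.8, and the median of the ratio of replicate 2 to replicate 1 was 0.755, near the 0.766 of the whole list. Across the 35 regions the Spearman rho of the signals was 0.56, beside 0.58 over 2723 regions of the list. The 6 regions that form overlapping pairs take the same replicate region within each pair. Their replicate values are thus counted again in all these figures, and the weaker of a pair carries the replicate signals of the stronger. The regions of a replicate share a library and its depth, so these are descriptions.

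**Figure D5:**
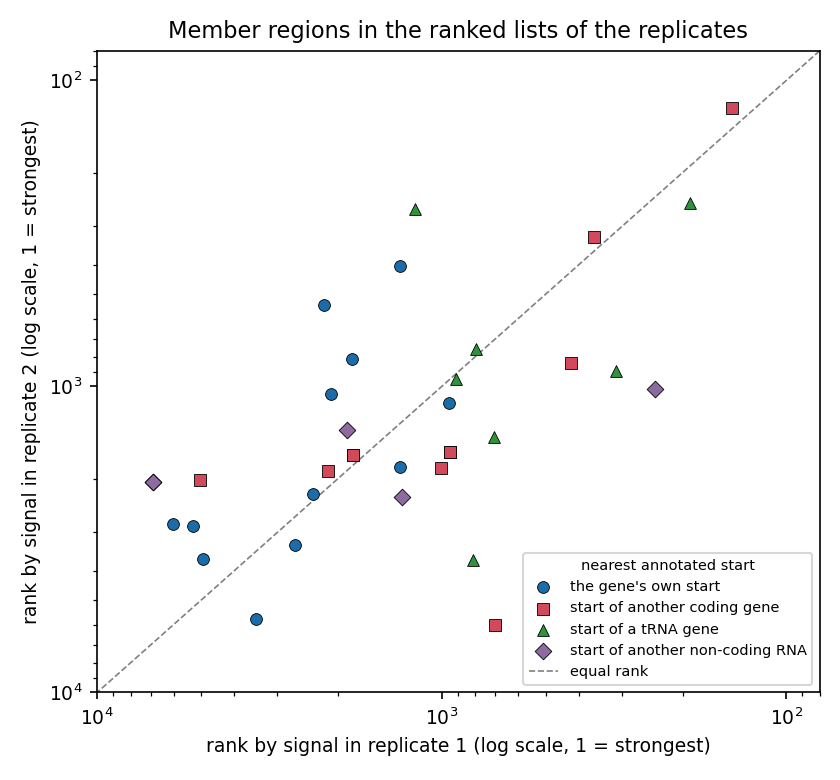
Rank by signal of each of the 35 regions in the ranked list of replicate 1 (horizontal) and of replicate 2 (vertical), on log scales with the strongest at the top right and a dashed line of equal rank. The region at Top1 near gce has the highest rank in both, at 144 and 123, and 19 of the 35 regions lie above the line, with a higher rank in replicate 2. The regions of an overlapping pair have the same ranks and fall on the same point, so 32 points are separate.

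Short sequences known from hormone receptors and promoters were counted within 50 bp of each summit, on either strand, beside the share of all 2747 regions that hold them. The nuclear receptor sequence AGGTCA was at 0 of the 35 summits, against 1.64% of all regions, and its extension CAAGGTCA, bound by the Ftz-F1 and Hr3 proteins, at 0 against 0.109%. The E-box CACGTG was at 0 of 35 (1.93% of all), and CACGCG, its variant, at 4 (11.4%, against 5.35% of all). These 4 regions lay at the start of Eip78C-RB, in an intron of Eip74EF, beyond the 3′ end of Eip75B and upstream of Met. That of Eip75B was 12517 bp from its nearest Eip75B start, and that near Met was 8 bp from the start of CG1703. Any of these 4 sequences was at 4 of the 35 (11.4%), against 8.66% of the list. AGGTCA lies within CAAGGTCA, so the counts of this pair are not separate.

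Promoter sequences were counted by the kind of region. TATCGATA was at 6 of the 35 (17.1%, against 12.6% of all): 5 of the 11 regions nearest to another coding gene, the shared start at ftz-f1, and 0 of the 12 nearest to a start of the gene itself. Over the whole list it was at 15.3% of regions within 500 bp of a start and 1.79% of those farther away. Of the 11 regions 10 lay within 500 bp of some start, and of the 12 only 6 did. Kind of start and distance therefore cannot be told apart in these counts. CGATA, which lies within TATCGATA and is bound by the insulator protein BEAF-32, was at 10 (28.6%, against 42.6%). Of these, 7 were among the 11 at neighbouring coding genes and 1 among the 12. Over the whole list CGATA was at 49.9% of regions within 500 bp of a start and 14.1% of those farther away. GAGAG was at 5 (14.3%, against 12.8%) and GGTCACAC, the core of the M1BP site, at 1 (2.86%, against 4.51%), the strong region at Top1.

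TGGCGC, the core of the site of the insulator protein CTCF, was at 8 of the 35 (22.9%, against 11.1% of all). Of these, 4 were at tRNA regions of EcR, where the match lay inside a tRNA gene. The others were both intronic regions of Eip75B above, the called start of Hr3, and Top1 near gce. Over the whole list TGGCGC was at 9.10% of regions within 500 bp of a start and 18.8% of those farther away. Among the 35 it was at 6 of 23 (26.1%) and 2 of 12 (16.7%) of these. CGATA and TGGCGC were chosen after the sequences at the summits had been read. CAGGTAG, bound by Zelda, was at 0 (0.255% of all), CACACACA at 1 (2.86%, against 2.15%) and a run of 8 or more A, AAAAAAAA, at 3 (8.57%, against 2.69%). The median GC content of the 101 bases was 47.5% for the 35 and for all regions. A match describes the letters in this window and is not evidence that a protein bound there.

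Other genes of the pathways were counted the same way, as 5 lists that hold 80 genes. In the conservative list 38 of the 80 (47.5%) had a region in the 5 kb window, beside 41.3% of all protein-coding genes, and 19 (23.8%) had one at a start, beside 18.0%. Of 15 further nuclear receptor genes, 7 had a region and 1 had it at a start, that of svp with a signal of 126. The highest signals of this list lay at neighbours: 236 for Hr83, 18 bp from the start of Pak, 189 for Hnf4, 39 bp from a tRNA gene, and 177 for Hr51, nearest to unc-5.

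Among 17 early and late ecdysone response genes, 8 had a region and 4 had it at a start. The highest was crol, a zinc finger gene induced by ecdysone, with 140.5 at 897 bp from its nearest start, followed by Eip63F-1 with 118, 5 bp from the start of mge, and E23, an ABC transporter gene, with 92.4 at 33 bp from its own start. Co-regulators and chaperones of the receptors had 8 of 14, and 6 at a start. Nup358, a nuclear pore gene, had 424 at 50 bp, Iswi, a nucleosome remodeller, 413 at 8 bp, and kis, a CHD family remodeller, 315 at 82 bp.

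Genes of ecdysteroid synthesis, uptake and breakdown had the lowest count, 5 of 18 (27.8%), with 1 at a start. Of the P450 genes of ecdysteroid synthesis in the list, spo, spok, phtm, dib and sad had 0 regions in the conservative list. The other, shd, which encodes the enzyme of the last step, had 1 region with a signal of 80.9 (rank 1959), 1843 bp from its own start and nearest to CG9628. The highest signal in a window, 380.4 for the ecdysone importer gene Oatp74D, lay 20 bp from the start of CG7564. The next were dare with 146, nearest to CG42336, and woc with 119.8 at 502 bp from its own start. Juvenile hormone genes had 10 of 16, and 7 at a start. Kr-h1 had 13437, the highest signal of the conservative list, at 2904 bp from the nearest starts, those of Kr-h1 and CG45075. Jhe, the juvenile hormone esterase gene, had 407 at 64 bp from the start of spin. The lists differ in size and in gene length, and no test compares them.

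Of genes outside the 10, those most like EcR in number of regions and, among ties, in span were SNF4Agamma, ATP8A and velo, with 7 regions each. Eip75B also had 7, and so did CG30065 and Ser8, which are shorter, at 0.733 and 0.839 kb. CG30065 and Ser8 lie within the span of ATP8A and have 8 tRNA genes in their windows. Their 7 regions are those of ATP8A counted again. SNF4Agamma spans 73.5 kb, close to the 81.2 kb of EcR, and has no tRNA gene in its window. ATP8A spans 24.1 kb and has 8 tRNA genes in its window, and velo spans 8.33 kb and has none. The numbers of regions at the other hormone genes were shared by more genes. They count both regions of an overlapping pair, as at ftz-f1, gce and Hr3, and were not set against genes of like length. At least 5 regions, as at ftz-f1, were found for 41 genes (0.294%), at least 4, as at gce, for 138 (0.990%), at least 3, as at Eip74EF and Hr3, for 578 (4.14%), and at least 2, as at br and Met, for 2099 (15.1%).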

How the data were processed

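Peak lists of ChIP-seq on 2 biological replicates of the CG42726-eGFP line were used. The labels give sonication, a size range of 200 to 800 and the build dm6, and say no more about separate collections of embryos. Signals are the values that the authors deposited with each region. Values of −log10 IDR (global) were taken from the deposited ranked lists. Which aligner and which peak caller made them is not given in the sources used here. A control is named among the parents of the lists in the deposited file records and was not analysed here; a further parent of the thresholded lists is named without its content. Depth is unknown.

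Summits were placed against the Ensembl annotation (release 115), without transposable elements, and sequence was read from the RefSeq genome of the same assembly. All 10 genes had the same span in both annotations. Regions outside the main chromosomes were left out of the counts by gene, start and sequence. They were kept in list sizes, ranks and list medians, and in the overlap shares of the whole replicate lists. A replicate's signal for a region is that of the strongest overlapping region of its ranked list, and it passed where its thresholded list overlaps. Python 3.11.15 with pandas 2.3.3, numpy 2.4.6 and scipy 1.17.1 was used, and the counting was tested on simulated regions. Alternatives were the pooled list, each replicate's list, regions above the median signal, other windows, overlaps and assignments, and a wider sequence window. The genes, gene lists and sequences were chosen with earlier results of these data known. Named were all 10 genes, neighbours with a nearer start, up to 3 genes per list with the highest signal (1 of them is not reported here), and the 3 genes outside the 10 most like EcR in number of regions and span; svp, the P450 genes, CG30065 and Ser8 were named after their values were seen. In the lists, 9 symbols were matched by a synonym and 2 listed symbols were not found.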

Additional observations from a re-analysis of the deposited data

How the results depend on the processing

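The number of genes with a called region, 9, was 10 in the pooled list, 8 to 9 with either replicate's list alone, 8 with regions above the median signal, 7 in the gene span or by nearest start, and 9 for the 10 kb window or any base of a region. The 35 regions at the 10 genes were 46 in the pooled list and 39 within 10 kb. They fell to 21 to 30 with either replicate's list alone, 22 above the median signal, 20 in the gene span, 22 when the nearest protein-coding start had to be the gene's own, and 12 when the nearest start of any gene had to be, a rule added after the data were seen. Genes with a region at a start, 4, were 7 in the pooled list, 4 to 5 in a replicate's list, 3 above the median signal, and 6 and 3 within 1 kb and 250 bp. Of the 38 pathway genes, 25 were left above the median signal and 18 in the span, with 26 to 39 in a replicate's list, 48 in the pooled list and 51 within 10 kb. Shares of all genes are given above for the 4 lists and for the gene span. For the other rules no such share is given, so those counts cannot be read against all genes. Shared regions, 19, were 18 at an overlap of 50% and 17 by summits within 100 bp. Regions with a hormone sequence, 4, were 5 within 100 bp and 4 in the pooled list. Stricter rules keep fewer regions by construction. No paired analysis was possible because there is 1 group.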
